A study of Mus musculus with 18 samples.

Results

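Gene expression in mouse embryonic stem cells (ESCs) carrying a doxycycline-inducible, active form of ezrin (iEZR_CA) was compared with that in WT ESCs in the naive state, before any differentiation had begun. The libraries were chosen by their labels, as cells held in 2i+LIF at an exit timepoint of 0 h, which gave 3 iEZR_CA and 3 WT libraries, 6 of the 18 in the series. The other 12 came from these lines at 24 h (T24) and 48 h (T48) of exit in N2B27 and are used here to see which differences stay with the lines. iEZR_CA cells are a PiggyBac transgenic line made in E14 cells and received doxycycline for about 16 h. The labels describe none for WT cells, so drug, transgene and any older difference between the lines cannot be told apart. The labels name the WT line E14 and the study names it E14TG2a. Whether iEZR_CA is a clone or a pool is not given in the sources used here. Reads counted on genes were 18785967, 27666556 and 24497779 in the WT ESC libraries and 19246243, 25148241 and 15074458 in the iEZR_CA ESC libraries, and the study counts the 3 libraries of a group as biological replicates.

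Ezrin, radixin and moesin (the ERM proteins) link the plasma membrane to the actin cortex and raise membrane tension when phosphorylated. A phosphomimetic ezrin keeps this link in its active state. In 2i+LIF, inhibitors of MEK and GSK3 together with LIF hold ESCs in naive pluripotency, with high naive transcription factors, low ERK signalling and low DNA methylation.

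Some sequences of promoters of genes that differed are shown first, since the genes of 3 lists described below moved largely in 1 direction. They come from RefSeq on GRCm38.p6, are read from 5′ to 3′ on the strand of the gene and lie upstream of its annotated start. Capitals mark, on either strand, the letters named for each set, and other searched strings are not marked. In the first pair, from the sterol enzyme genes Hsd17b7 (chr1:169969206-169969265, minus strand) and Dhcr7 (chr7:143830102-143830161, plus strand), the letters CCAATCA hold the core of the CCAAT box, the site of the factor NF-Y.
Hsd17b7: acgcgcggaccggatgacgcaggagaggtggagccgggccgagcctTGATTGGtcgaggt
Dhcr7: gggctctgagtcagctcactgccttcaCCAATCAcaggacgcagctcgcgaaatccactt
In the next pair, from Chac1 (chr2:119351023-119351082, plus strand) and Asns (chr6:7693210-7693269, minus strand), the letters TGATGNAA are those of the element through which ATF4 acts on amino acid stress genes.
Chac1: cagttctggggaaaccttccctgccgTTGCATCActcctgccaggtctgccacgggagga
Asns: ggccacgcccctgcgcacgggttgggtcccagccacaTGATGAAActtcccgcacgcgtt
In the last set, from the germline genes Brdt (chr5:107331089-107331148, plus strand), Tdrd1 (chr19:56826149-56826208, plus strand), Slc25a31 (chr3:40708751-40708810, plus strand) and Ddx4 (chr13:112652311-112652370, minus strand), the letters CACGTG are an E-box, which MAX and MGA of a Polycomb complex recognise at germline genes.
Brdt: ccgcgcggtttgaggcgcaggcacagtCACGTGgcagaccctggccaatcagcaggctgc
Tdrd1: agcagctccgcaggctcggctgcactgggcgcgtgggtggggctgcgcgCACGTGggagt
Slc25a31: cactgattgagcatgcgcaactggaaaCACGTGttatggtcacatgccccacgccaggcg
Ddx4: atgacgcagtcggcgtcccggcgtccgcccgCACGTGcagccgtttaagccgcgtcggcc

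A pair of label checks come before the results. Ezr (ENSMUSG00000052397, chromosome 17, 6738041 to 6782784, minus strand) had 12017, 11805 and 11468 normalized counts in WT ESCs and 25358, 24372 and 24728 in iEZR_CA ESCs. The lines did not overlap, and the iEZR_CA mean was 2.11-fold the WT mean (two-sided exact permutation test, p = 0.1, the smallest p that 3 libraries against 3 allow). The counts do not separate the transgene from the endogenous gene. Hprt (ENSMUSG00000025630, chromosome X, 52988137 to 53021659) encodes the purine salvage enzyme whose loss makes E14TG2a cells resistant to thioguanine. It had 2418, 2390 and 2559 normalized counts in the libraries labelled WT and 9.97, 5.86 and 8.40 in those labelled iEZR_CA, or 0.329% of the WT mean. It was at 0.542% of WT at T24 and 0.372% at T48. Nearby genes did not fall to this extent, with log2 fold changes of -0.67 for Phf6 and 0.84 for Fam122b. The iEZR_CA libraries thus have the Hprt level known for E14TG2a and the WT libraries do not, at all 3 stages. Which cells the WT libraries came from was not tested, and the groups keep the names of their labels below.

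Genes were compared with edgeR's quasi-likelihood test on counts, with Benjamini-Hochberg adjustment over 18469 genes and a threshold of 0.05. Of these, 10058 differed between the lines in ESCs (54.5%), 4877 higher in iEZR_CA cells (26.4%) and 5181 lower (28.1%). With spike-in (ERCC) scaling in place of TMM the genes differing between iEZR_CA and WT ESCs were 5506, with the genes higher in iEZR_CA ESCs at 3074 and the genes lower in iEZR_CA ESCs at 2432. Most differences were small. The median absolute log2 fold change of the genes called was 0.43, and 2898 of them (28.8%) differed by less than 0.25. Replicates lay close together, with a common biological coefficient of variation of 2.98%. Beyond a factor of 2, 2198 genes were called (11.9%), 1033 higher (5.59%) and 1165 lower (6.31%). With at least 10 counts required in all 6 ESC libraries, the genes differing beyond a factor of 2 were 1117, with the genes higher beyond a factor of 2 at 515 and the genes lower beyond a factor of 2 at 602. The later stages had a like background, with 60.9% of genes called at T24 and 61.1% at T48. Beyond a factor of 2 these were 14.9% at T24 (7.88% higher, 7% lower) and 16.1% at T48 (7.83% higher, 8.25% lower).

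The 12 largest fold changes in each direction were taken among dispersed, protein-coding genes that were called, had no overlap between the lines, reached at least 200 normalized counts in 1 line and were not at the floor of detection in the other. Genes at the floor are given apart below. Mid1, a microtubule-associated ubiquitin ligase gene at the border of the pseudoautosomal region of chromosome X, had 7.87, 10.7 and 5.96 normalized counts in WT ESCs and 1089, 1052 and 995 in iEZR_CA ESCs. It has a near-identical copy on chromosome Y, so its count is uncertain. Rapgef4, which encodes a cAMP-activated exchange factor for Rap GTPases, was at 1.12, 1.53 and 6.81 in WT and at 280, 280 and 295 in iEZR_CA cells. Both were all but silent in WT cells and stayed higher in iEZR_CA cells at T24 and T48, Mid1 by log2 fold changes of 6.92 and 5.23 and Rapgef4 by 1.48 and 2.24.

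Of the other rises, Duox1, an oxidase that makes hydrogen peroxide, rose from 53.8 ± 11 to 1118 ± 85.2 normalized counts (SD, n = 3). Dab2, an endocytic adaptor and marker of primitive endoderm, rose from 45.2 ± 11.1 to 631 ± 19, and Anxa2, an annexin that joins membrane to actin, from 52.1 ± 3.90 to 682 ± 44.2. Cdh20, a type II cadherin, rose from 14.7 ± 0.994 to 253 ± 11.1. Pramel6, one of a family of PRAME-like genes of the naive embryo whose members share sequence, rose from 57.7 ± 1.37 to 799 ± 24.4. For these 5 genes the log2 fold changes lay between 3.71 and 4.34, with adjusted p-values of at most 3.8e-11 by edgeR. The remaining 5 rises were Ly6c1, Oc90, 4933402E13Rik, Abcb11 and Akr1cl, with log2 fold changes of 3.46 to 4.12.

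Of these 12 falls, Hprt was the largest. Among the others were Lefty1 and Lefty2, neighbouring genes on chromosome 1 for secreted inhibitors of Nodal. Lefty1 had 284, 233 and 246 normalized counts in WT ESCs and 11.1, 14.2 and 11.2 in iEZR_CA ESCs (log2 fold change -4.33 with a standard error of 0.25, and an adjusted p = 2.0e-11 in edgeR). Lefty2 had 851, 679 and 691 in WT and 46.5, 56.1 and 70 in iEZR_CA cells (log2 fold change -3.70, adjusted p = 2.7e-12). At T48 both were higher in iEZR_CA cells, by 1.67 and 1.37 on the log2 scale.

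Of the 12 falls, 6 lie on chromosome 7, among them the neighbours Kirrel2 and Nphs1, which encode partner proteins of cell contacts known from the kidney. Nphs1 fell from 653 ± 36.0 to 69.1 ± 4.84 normalized counts and Kirrel2 from 281 ± 13.6 to 26.5 ± 3.61. Trpm1, a cation channel gene, had the most counts of the 6 and fell from 2514 ± 96.5 to 283 ± 40.9. The others include Cd37 and Clip3, with log2 fold changes of -2.92 and -2.78. Of all genes tested on chromosome 7, 9.17% were lower by more than a factor of 2, against 6.31% of all genes. Those higher by more than a factor of 2 were 6.98% there, against 5.59% of all genes. Away from chromosome 7, Prmt8, Myo1a and Dtx1 fell, by log2 fold changes of -3.95, -3.12 and -2.76. Myo1a is a class I myosin that ties membrane to actin, and Dtx1 a regulator of Notch signalling.

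**Figure D1:**
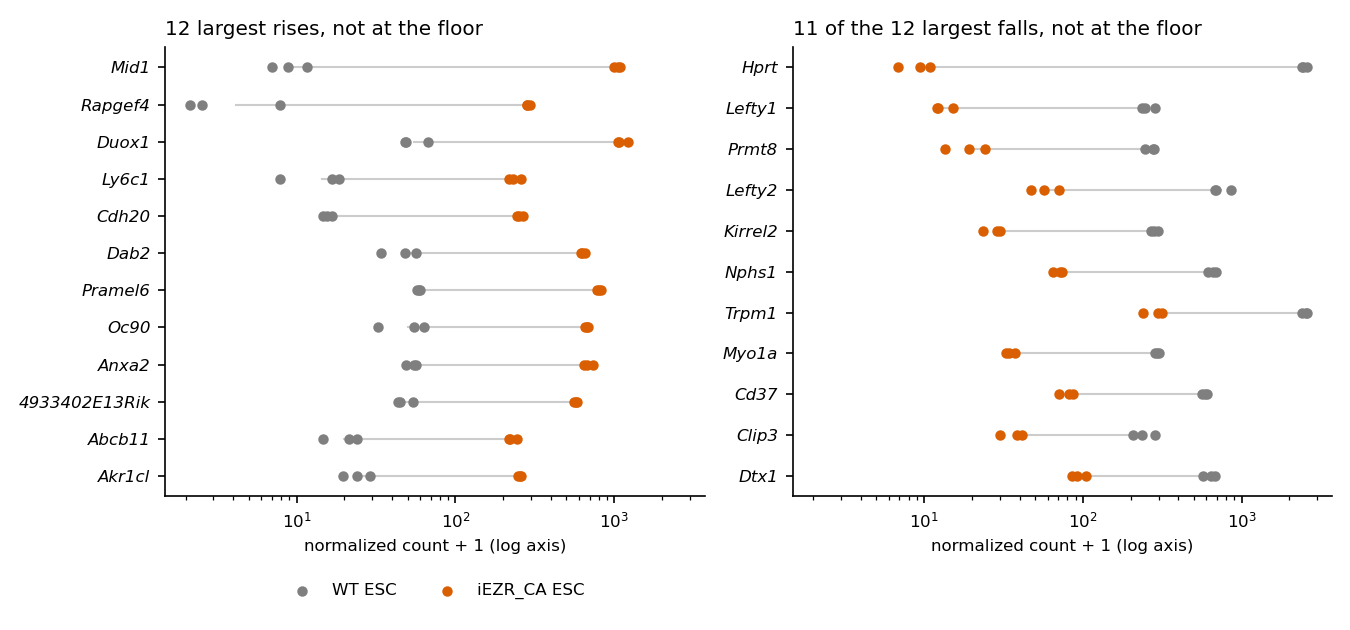
Normalized counts plus 1 (log axis) of the 12 largest rises (left) and 11 of the 12 largest falls (right) among dispersed protein-coding genes not at the floor in either line, with 1 point per library, WT ESCs in grey and iEZR_CA ESCs in orange, and a line between the group means. The points of the lines do not overlap for any of the 23 genes, as the rule that chose them required, and Mid1 runs from 8.18 to 1045 and Hprt from 2456 to 8.08 in the means.

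A few genes were at the floor of detection, taken as at most 3 counts in every library, in 1 line and at 50 or more normalized counts in the other. In WT ESCs 5 protein-coding dispersed genes were at the floor, Nav3, Acsm4, Pvalb, Cd3g and Trpv5. Nav3, a gene of the neuron navigator family, had 246, 249 and 218 normalized counts in iEZR_CA ESCs and at most 2.30 in any WT library. Pvalb, a calcium-binding protein gene, had 126, 101 and 91.0 in iEZR_CA ESCs and at most 0.765 in any WT library. In iEZR_CA ESCs Saa3, an acute-phase gene, had 0 counts in each library and 274, 282 and 273 normalized counts in WT ESCs, at least 82.7-fold lower against a floor of 3 counts per library. Nav3 did not keep its direction, and at T48 it had 17.9 normalized counts in WT and 0.935 in iEZR_CA cells.

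Beyond a factor of 2, the 5 dispersed rises with the highest mean count over all 18 libraries were Ezr, Dnmt3l, Idh1, Lrp2 and Slc38a4. Idh1, which makes NADPH and 2-oxoglutarate in the cytosol, had 6768 ± 172 normalized counts in WT and 14276 ± 427 in iEZR_CA ESCs. Slc38a4, a paternally expressed amino acid transporter gene, had 2590 ± 234 and 10298 ± 154. Dnmt3l, the cofactor of the de novo DNA methyltransferases, had 529 ± 62.9 and 1837 ± 53.7. The falls were Lin28a, Slc16a3, Apoe, Gtf2i and Rarg. Lin28a, which blocks let-7 maturation, fell from 1591 ± 36.3 to 259 ± 19.7, and Rarg, a retinoic acid receptor gene, from 3117 ± 175 to 960 ± 110. Apoe fell from 9475 ± 241 to 4646 ± 153, and Gtf2i from 5192 ± 171 to 2276 ± 94.9.

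Genes were next laid along the genome to separate dispersed genes from stretches in which neighbours shifted together, as a change in copy number would give. Windows of 5 Mb were judged only on T24 and T48, so the ESC libraries did not choose the regions. The same lines were used at all stages, so a region is fixed in the line across the 3 stages, and no DNA was measured here. Of 411 windows with at least 10 genes, runs of 2 or more gave 3 regions, which held 525 of the 18469 genes tested. The other 17944 are called dispersed here, and held 9666 of the 10058 genes called in ESCs and 2041 of the 2198 beyond a factor of 2 (92.9%).

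One region stood far from the rest. On chromosome 14, from 50000001 to 80000000, the 207 genes with at least 50 mean normalized counts had a median of -0.91 on the log2 scale against WT ESCs after centring on all such genes, a ratio of 0.531. The quartiles were -1.22 and -0.70, and 194 of the 207 (93.7%) were below 0. The medians at T24 and T48, the stages that chose the region, were -0.94 and -0.92. By library, the region's median against the WT mean was -0.95, -0.92 and -0.95 in iEZR_CA ESCs. A running median of 11 genes at the later stages was below -0.5 from Ttc5, which begins at 50765415, to Elf1, which ends at 79582494, at 205 of the 206 genes of this stretch. The rest of chromosome 14 had a median of 0.03 in ESCs.

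Of the 293 tested genes of the region, 227 were called lower in ESCs and 11 higher, against 28.1% and 26.4% of all genes tested. The region held 122 of the 1165 falls beyond a factor of 2 (10.5%). The 3 protein-coding genes with the most counts there were Hnrnpc, Supt16 and Acin1. Supt16, a subunit of the histone chaperone FACT, had 9946, 10043 and 9304 normalized counts in WT ESCs and 3864, 3816 and 3882 in iEZR_CA ESCs, a ratio of 0.395. The splicing genes Hnrnpc and Acin1 had ratios of 0.776 and 0.697, so members did not fall by 1 common factor. Several genes that carry weight in the lists below lie here. Rb1, the retinoblastoma gene, fell from 451 ± 24.2 to 167 ± 4.24 normalized counts, Fdft1, which makes squalene, had a log2 fold change of -0.67, and Gata4, an endoderm factor, fell by 2.52 on the log2 scale. Piwil2, a piRNA pathway gene, went the other way, from 94.0 ± 12.1 to 217 ± 37.0.

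Chromosome 8 showed a smaller shift along its whole length. The median over its 683 genes was 0.20 in ESCs, a ratio of 1.15, with 73.1% of them above 0, and 0.24 and 0.18 at T24 and T48. All 22 windows measured on it had a median above 0 in ESCs, between 0.10 and 0.76. A pair of stretches passed the threshold of 0.15 used for windows, from 40000001 to 65000000 (median 0.40, 56 genes) and from 100000001 to 115000000 (median 0.21, 106 genes), and the chromosome outside them had a median of 0.17. The genes with the most counts there varied. The naive factor gene Zfp42 had 18260 ± 573 normalized counts in WT and 17567 ± 196 in iEZR_CA ESCs and did not pass the test, while the atypical cadherin gene Fat1 rose from 5402 ± 72.2 to 9368 ± 646 and E-cadherin (Cdh1) from 16141 ± 658 to 23734 ± 322. Cdh3, which encodes P-cadherin and neighbours Cdh1, rose from 444 ± 23.9 to 4041 ± 133. Genes of chromosome 8 outside the pair of stretches count as dispersed, and without them 17218 dispersed genes were left, of which 9230 were called, 4415 higher and 4815 lower, and 1968 lay beyond a factor of 2. The medians of the chromosomes other than 8 and 14 lay between -0.08 and 0.05.

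**Figure D2:**
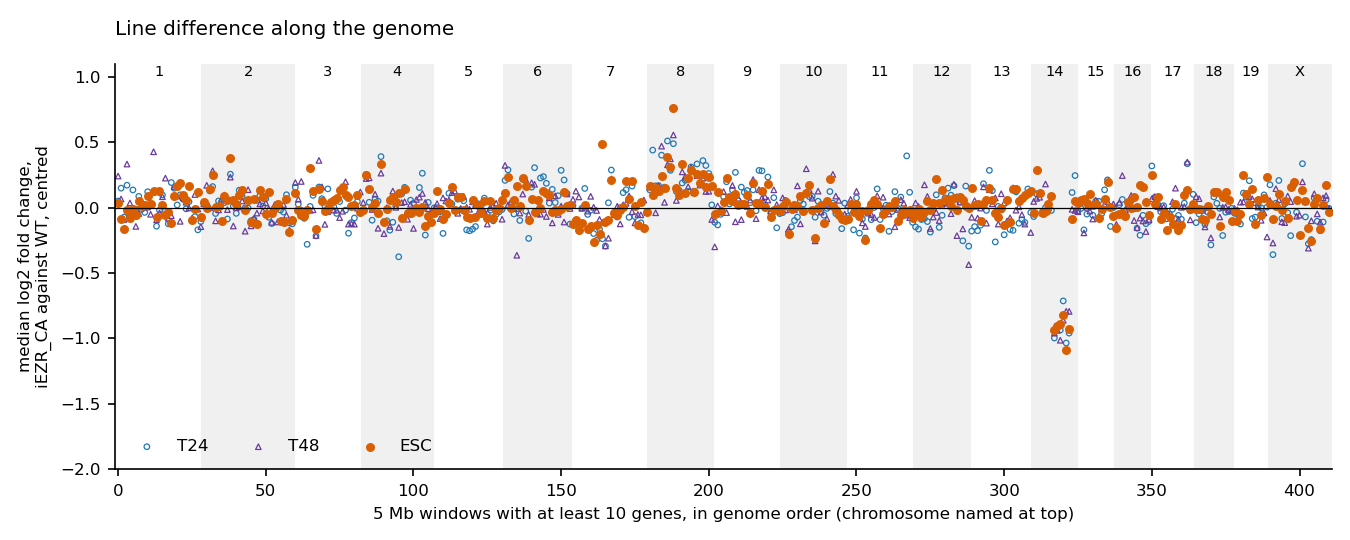
Median centred log2 ratio of iEZR_CA to WT cells in 411 windows of 5 Mb in genome order, in ESCs (filled orange), at T24 (open circles) and at T48 (open triangles), with chromosomes shaded in turn. The 6 windows of the chromosome 14 region lie between -1.09 and -0.71 over the 3 stages, and the windows of chromosome 8 lie above 0 in ESCs.

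**Figure D3:**
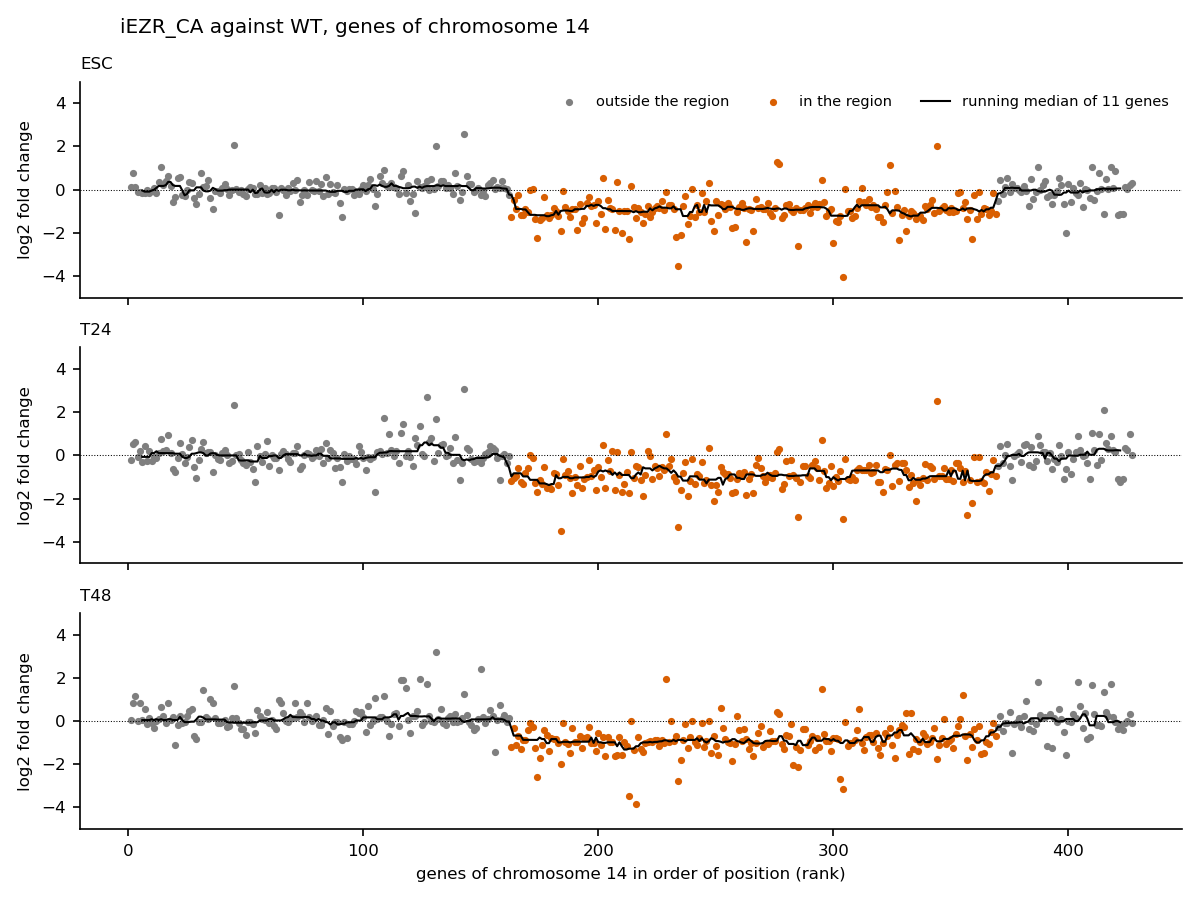
Centred log2 fold change of 427 genes of chromosome 14 in order of position, in ESCs, at T24 and at T48, with genes of the region in orange, other genes in grey and a running median of 11 genes as a line. The line lies below the rest of the chromosome over the region at each stage, with medians of -0.91, -0.94 and -0.92.

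The 3 stages also show how far dispersed differences lasted. Of the 1006 dispersed genes that were higher by more than a factor of 2 in ESCs, 68.2% were called higher at T24, 50.2% at T48 and 42.5% at both, against 30.8%, 31.0% and 18.5% of all genes tested. Of the 1035 that were lower, 65.2%, 57.8% and 45.2% were called lower, against 30.1% of all genes tested at each stage and 16.7% at both. Across 12398 dispersed genes with at least 50 mean normalized counts, the log2 fold changes in ESCs had a Pearson correlation of 0.66 with those at T24 and 0.44 with those at T48. Across the 207 genes of the chromosome 14 region these were 0.81 and 0.51. Genes within a library are not independent, and the stages share both lines but no libraries. Of the dispersed genes higher in ESCs, 11.8% were called lower at T48, and of those lower in ESCs, 11.9% were called higher.

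**Figure D4:**
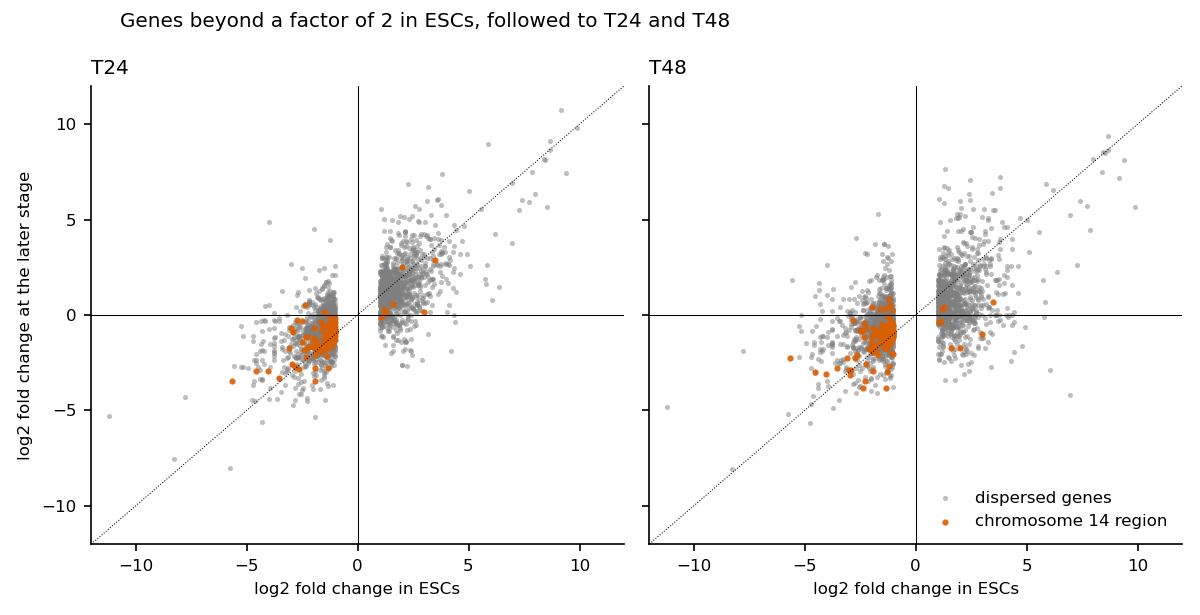
Log2 ratio of iEZR_CA to WT cells at T24 (left) and T48 (right) against that in ESCs, for the genes called beyond a factor of 2 in ESCs, dispersed genes in grey and genes of the chromosome 14 region in orange, with equality dotted. The median of the dispersed rises goes from 1.66 in ESCs to 1.35 at T24 and 0.74 at T48, and that of the dispersed falls from -1.49 to -0.89 and -0.63.

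Named groups of genes were then described by how many members passed the same test over all genes, beside the 26.4% higher and 28.1% lower over all genes tested, whose median log2 fold change was -0.01. Of 14 genes for ERM proteins and their membrane partners, 7 rose and 3 fell. Moesin (Msn, ENSMUSG00000031207, chromosome X) rose from 4043 ± 341 to 8051 ± 171 normalized counts, nearly the fold change of Ezr, and stayed higher at T24 and T48 by 0.46 and 0.52 on the log2 scale. Radixin (Rdx) was at 6245 ± 281 and 6251 ± 115, with no difference detected (adjusted p = 0.93 in edgeR, with a log2 fold change of -0.00 and a standard error of 0.028). The scaffold gene Slc9a3r2 fell from 1011 ± 7.91 to 511 ± 19.4, while the low scaffold gene Pdzk1 rose from 8.42 ± 3.87 to 67.6 ± 8.50 and the hyaluronan receptor gene Cd44 from 4.46 ± 2.33 to 16.4 ± 2.11. Slk, an ERM kinase gene, rose by 0.53.

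Among 8 class I myosins, 2 rose and 4 fell, with Myo1f at 804 ± 49.4 and 293 ± 45.5 normalized counts. Clathrin endocytosis genes split 12 to 6 of 26, with clathrin heavy chain (Cltc) falling by 0.44 and amphiphysin (Amph) rising by 0.58. Caveola genes split 3 to 3 of 6, with Cavin1 falling from 289 ± 29 to 170 ± 11.2 and Ehd2 rising from 33.1 ± 4.01 to 72.4 ± 8.36. Of 17 targets of the actin- and tension-sensitive regulators SRF and YAP, 7 rose and 5 fell. Ccn1 rose from 405 ± 29.7 to 1173 ± 63.2, Tpm1 from 1489 ± 30.5 to 3035 ± 77.2 and Tagln2 from 1623 ± 25.6 to 3188 ± 141, while Tead2, a DNA-binding partner of YAP, fell from 4693 ± 120 to 1824 ± 55.8. Lats2 and Ajuba, 2 of the 5 that fell, lie in the chromosome 14 region.

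Adhesion and matrix genes rose more often than they fell, 15 against 10 of 28 (median 0.27). Cdh3 led, followed by Itga1 with a log2 fold change of 1.68. Lama1, a laminin chain of the basement membrane, rose from 1764 ± 36.2 to 3606 ± 139, and the integrin beta subunit Itgb1 rose by 0.89. Itgb3 fell from 533 ± 48.2 to 263 ± 15.3, and N-cadherin (Cdh2) fell by 1.01. Of the 28 genes, 6 lie on chromosome 8.

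The naive list overlaps the genes that the study plots from these libraries, so it is not independent evidence of a direction. Of its 20 genes, 4 rose and 9 fell (median -0.08). Nr0b1 fell from 2837 ± 207 to 1271 ± 83.0 normalized counts, Sox15 from 473 ± 40.9 to 238 ± 15.1 and Klf4 from 8016 ± 339 to 5738 ± 255. Nanog had a log2 fold change of -0.19 and Esrrb of -0.15. Of 10 general pluripotency genes, 9 fell and 1 rose (median -0.30). Lin28a fell by 2.64, Sall4 by 0.56 and Sox2 by 0.32 on the log2 scale, the last not called when spike-ins set the scale. Formative genes, which come up as cells leave the naive state, fell in 10 of 18 cases and rose in 5 (median -0.78), from low levels. Their median was -0.56 with at least 10 counts required in all 6 ESC libraries and -0.55 in a fit of these 6 libraries alone. Tcf15 fell from 187 ± 17.0 to 52.9 ± 0.796 and Pou3f1 from 70.4 ± 14.6 to 26.0 ± 7.97, while the methyltransferase gene Dnmt3a rose from 1230 ± 71.6 to 1880 ± 64.1. Fgf5 and Fgf15 fell too, with WT means of 6.16 and 6.80 normalized counts. The calls of Pou3f1 and Fgf15 were lost when some single libraries were left out.

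FGF ligands, FGF receptors and targets of ERK, whose activation is blocked in this medium, fell in 15 of 32 cases and rose in 9 (median -0.16). The median was -0.02 with at least 10 counts required in all 6 ESC libraries and -0.06 in a fit of these 6 libraries alone. Myc fell from 154 ± 32.3 to 71.7 ± 12.3 normalized counts, and the feedback phosphatase gene Dusp6 by 0.60 on the log2 scale. Egr1 and Fosl1 also fell, from WT means of 15.7 and 11.5. The feedback inhibitor Spry4 went the other way (log2 fold change 0.61). In the Nodal list 8 of 15 fell and 3 rose. The ligand gene Nodal fell by 0.41 and its coreceptor gene Tdgf1 by 0.27, far less than Lefty1 and Lefty2. BMP genes split, with 8 higher and 6 lower of 20. Bmp4 rose from 106 ± 10.7 to 626 ± 43.2 and Id2 from 93.5 ± 4.13 to 467 ± 56.0, whereas Id1 fell from 121 ± 10.05 to 45.8 ± 11 and Msx1 from 26.5 ± 6.44 to 11.3 ± 6.51. In the WNT list 9 of 21 fell and 6 rose, and Notum, a secreted WNT inhibitor, fell from 1266 ± 53.6 to 465 ± 23.6. LIF pathway genes split 7 to 5 of 16, with Jak2 and Lifr higher by 0.44 and 0.32.

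Of 30 cholesterol and fatty acid synthesis genes, 24 rose and 1 fell (median 0.43). Hsd17b7 rose from 497 ± 12.1 to 898 ± 33.0 normalized counts, Pmvk from 739 ± 31.8 to 1348 ± 22, Dhcr7 from 1416 ± 28.5 to 2468 ± 82.2 and the desaturase gene Scd1 from 6714 ± 259 to 11851 ± 214. Each of these 4 rises was less than a factor of 2. The lines did not overlap for any of these 4, which was also so for 9453 of the 10058 genes called. The 5 genes that did not pass the test include Fasn, Acly and Hmgcs1, with log2 fold changes of -0.06, 0.02 and -0.05. The 1 that fell, Fdft1, lies in the chromosome 14 region.

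Genes of the integrated stress response, which ATF4 directs, fell in 16 of 25 cases and rose in 4 (median -0.40). Atf4 fell by 0.59, Ddit3 by 0.42 and Trib3 by 0.41 on the log2 scale. Chac1, a glutathione-degrading enzyme gene, fell from 285 ± 16.0 to 79.4 ± 4.70 normalized counts and Gdf15 from 254 ± 20.3 to 133 ± 22.5. Pck2 also fell, by 1.34, and lies in the chromosome 14 region. Asns rose by 0.16, and the cystine transporter gene Slc7a11 rose from 17.7 ± 3.69 to 30 ± 6.90, a call lost without some single libraries. Of 30 glycolysis and hypoxia genes, 14 fell and 5 rose (median -0.20), with Pfkp falling from 5973 ± 55.7 to 3636 ± 76.8, Vegfa from 1143 ± 30.4 to 748 ± 17.8 and the lactate exporter gene Slc16a3 from 135 ± 8.51 to 47.2 ± 9.89. Mitochondrial-encoded mRNAs rose in 6 of 13 cases and fell in 1. Nuclear respiratory chain genes split 10 to 7 of 27.

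**Figure D5:**
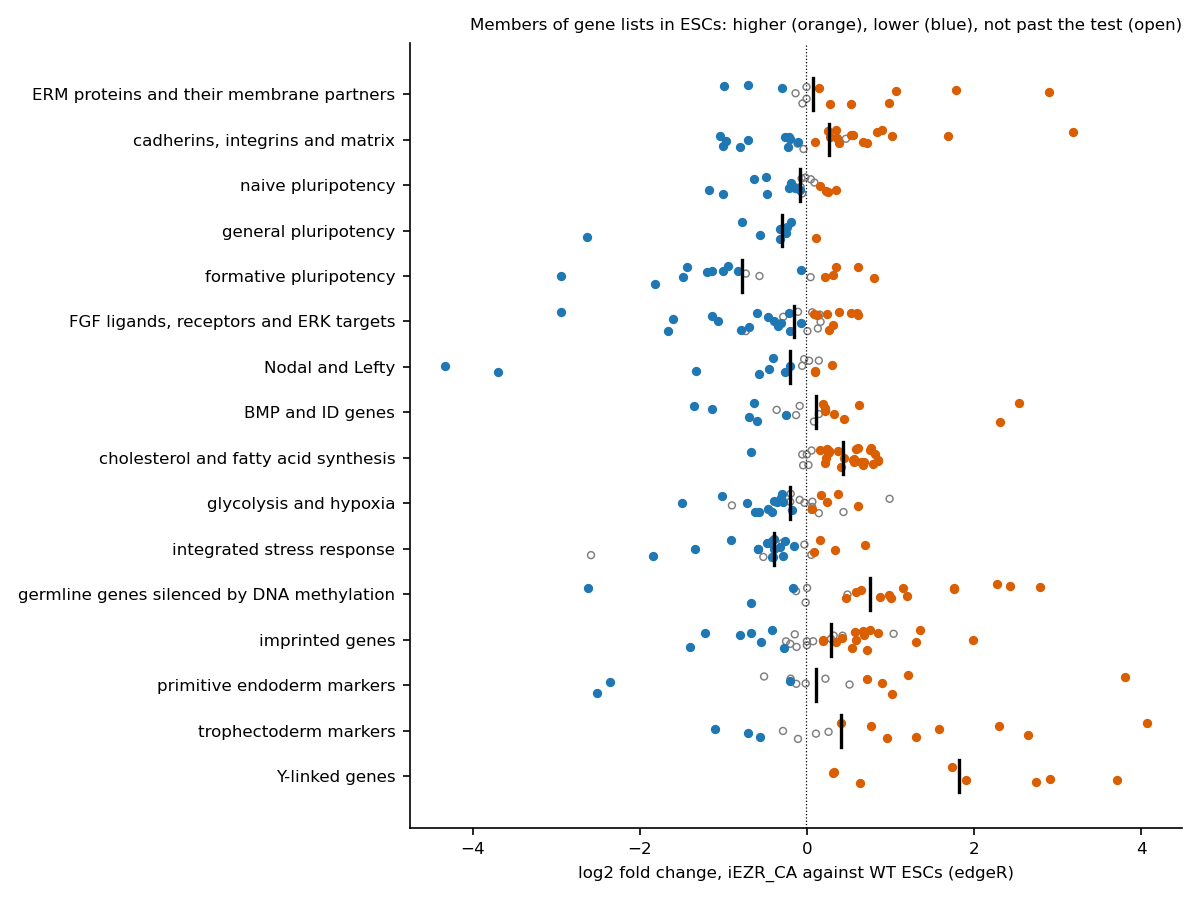
Log2 fold change of iEZR_CA against WT ESCs for each tested member of 16 lists, with members that rose in orange, those that fell in blue, those that did not pass the test open, a bar at the median of each list and a dotted line at the median of all genes tested, -0.01. The medians run from -0.78 for formative pluripotency to 1.82 for Y-linked genes, and 24 of the 30 sterol and lipid genes lie in orange.

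Genes of the germline that DNA methylation silences in somatic cells rose in 13 of 20 cases and fell in 3 (median 0.76). Brdt, a testis bromodomain gene, had 37.1, 26.8 and 20.4 normalized counts in WT ESCs and 153, 216 and 199 in iEZR_CA ESCs. Asz1 rose from 11.6 ± 2.52 to 56.4 ± 15.0 and Tex101 from 5.62 ± 0.506 to 30.7 ± 4.83. Stra8, the retinoic acid-responsive gene of meiotic entry, fell from 1329 ± 150 to 220 ± 31.7, against the direction of the list. Among 16 genes of the DNA methylation machinery, 6 rose and 4 fell. Besides Dnmt3l and Dnmt3a, Mbd2 rose from 441 ± 8.16 to 689 ± 19.4. Dnmt1 and Tet1 had log2 fold changes of 0.01 and -0.15 and did not pass the test, and Uhrf1 fell by 0.28. Of 33 imprinted genes, 15 rose and 7 fell (median 0.29, or 0.19 without iEZR_CA ESC library 3). Sgce rose from 28.2 ± 3.71 to 72.3 ± 1.96 and Ascl2 from 37.8 ± 9.07 to 93.7 ± 13.8, while Phlda2 fell from 35.3 ± 9.01 to 13.3 ± 1.98.

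The promoter letters shown above were searched on both strands of RefSeq promoters of 300 bases, from 250 before to 50 after the start. Of the 18 germline genes found there, 11 held CACGTG, against 8.09% of 27025 genes and 11.4% of the tested genes with a promoter. The 11 include Brdt, Tdrd1 and Mov10l1, which rose, and Taf7l, which fell, and Stra8 is not among them. Of 24 stress response genes, 8 held TGATGNAA, against 4.51% of all genes. They include Chac1, Trib3 and Pck2, which fell, and Asns and Slc7a11, which rose. Of 20 sterol and lipid genes, 11 held CCAATCA, the longer form of CCAAT, against 11.8% of the tested genes with a promoter, and 18 held CCAAT, against 42.9%. CCAATCA was also found in 9 of the 24 stress response genes and 7 of the 18 germline genes, so it was not confined to the sterol list. The sterol element TCACNCCAC was found in 1 of the 20, against 1.49%. In all, 10 strings were searched over 4 lists, chosen after the values of the genes were known. A match is a description of the letters only.

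Markers of other cell types were measured to see which cells the cultures could hold. Of 14 primitive endoderm markers tested, 5 rose and 3 fell. Over all 18 markers of the list the summed normalized counts were 8807, 9043 and 8981 in WT ESCs and 15877, 15798 and 16206 in iEZR_CA ESCs. Sparc, with the most counts, made up most of this sum, with 6114, 6240 and 6131 in WT and 10238, 10153 and 10154 in iEZR_CA ESCs. Dab2, Lrp2 and Gata6 rose, with Gata6 at log2 fold change 0.90 and Lrp2 going from 489 ± 32.2 to 1148 ± 66.2. Gata4 and Sox7 fell and lie in the chromosome 14 region, and Ttr, Afp and Apoa1 had at most 3 counts in every ESC library. In bulk RNA a change in the number of cells of a type and a change in RNA per cell cannot be told apart.

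Of 15 trophectoderm markers tested, 8 rose and 3 fell (median 0.40). Gata3 rose from 28.1 ± 1.78 to 138 ± 2.58 and Krt8 from 40.5 ± 11.9 to 127 ± 18.3, and Dppa1 from 7.15 ± 3.10 to 126 ± 7.52. Tfap2c, with the most counts of them, had a log2 fold change of -0.71, and the summed counts of all 16 markers of the list were 4413 in WT and 3945 in iEZR_CA ESCs in the mean. Mesendoderm markers fell in 4 of 10 cases and rose in 1, with T (brachyury) at 19 ± 3.58 and 5.29 ± 1.24. Gsc, the mesendoderm marker with the most counts, had 381, 377 and 335 in WT and 526, 570 and 573 in iEZR_CA ESCs. Over all 14 mesendoderm markers the summed counts were 795 in WT and 901 in iEZR_CA ESCs in the mean. Neural markers split 2 to 3 of 10. Fibroblast markers, as a check for feeder cells, fell in 4 of 9 cases and rose in 2. Vim had the most counts of that list, at 7574 ± 191 and 4424 ± 67.2, and Dcn, Postn, Prrx1 and Lox were among 6 genes with at most 3 counts in every ESC library. The part of these markers in the other differences was not tested.

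The remaining lists were mixed. Of 8 genes of the Y chromosome all rose (median 1.82, or 0.64 over the members with at least 10 counts in all 6 ESC libraries), from Eif2s3y at a log2 fold change of 0.31 to Zfy2 at 3.71. Uba1y went from 156 ± 20.6 to 1037 ± 28.2 normalized counts. Chromosome Y took 0.0302%, 0.0291% and 0.0294% of gene reads in WT ESCs and 0.0491%, 0.0494% and 0.0492% in iEZR_CA ESCs. Among 2-cell-like genes 7 rose and 6 fell of 16, with Zscan4a, Zscan4c, Zscan4d and Zscan4e lower and members of the Usp17-like family higher, and both families share sequence, so their counts are uncertain. Interferon response genes split 5 to 7 of 18, with Ifitm3 falling from 4033 ± 160 to 1902 ± 68.7. Of 23 targets of p53, 7 rose and 11 fell, and none moved by a factor of 2. Cell cycle regulators split 7 to 10 of 27, of which Rb1 had the largest fall. Replication-dependent histones, of which polyadenylated RNA holds little, fell in 4 of 13 cases and rose in none.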

How the data were processed

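RNA-seq counts of 18 libraries were used. The authors trimmed reads with Trim Galore 0.6.5, aligned them to mm10 (GRCm38) with GSNAP and made the deposited counts per gene with HTSeq, without normalization. HTSeq drops reads that align to several places. Whether strand was used is not given in the sources used here, so antisense and overlapping genes are uncertain. Symbols and coordinates come from GENCODE M21. Spike-in and unassigned reads were left out.

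Genes were filtered with filterByExpr and tested in edgeR 4.0.16 (R 4.3.3) with TMM, the 6 groups as terms and all 18 libraries. Normalized counts used DESeq2 1.42.0 size factors. Regions were runs of at least 2 adjoining measured 5 Mb windows whose medians passed 0.15 with 1 sign at T24 and T48, and 70% of genes of that sign. Named genes were the ERM genes, the 12 largest changes per direction (called, without overlap, at least 200 counts in 1 line, not at the floor), genes at the floor, up to 4 members per list, 3 per region and the 5 most abundant per direction beyond a factor of 2, and others named were chosen after their values were seen. Members and lists were chosen with earlier results of these data known. A few genes and 1 list are not reported here. The tests were checked on simulated data in which far fewer genes differed than were called here. That check does not cover scaling or error rates under so wide a difference. The alternatives were other scalings, filters, tests and windows, and leaving out each library.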

Additional observations from a re-analysis of the deposited data

Results flagged for a closer look

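The line difference in ESCs was set against that at the later stages with a test of the difference itself in the same edgeR model, over all genes with Benjamini-Hochberg adjustment. Among the genes named by rule and reported here, 16 differences in 14 genes had called changes beyond a factor of 2 in opposite directions. Those listed also passed the test of the difference. They were chosen by these opposite changes, so small adjusted p-values of the difference follow from the choice and are no separate evidence. The share of all genes tested that would meet this rule is not given here.

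The log2 fold change in ESCs minus that at T48 was -6.004 for Lefty1 (adjusted p = 2.6e-13) and -5.07 for Lefty2 (adjusted p = 6.3e-12), both lower in iEZR_CA ESCs and higher at T48. Notum, which encodes a WNT-inactivating enzyme, had -5.17 against T48. Wnt8a went the other way, with 2.79 against T24 and 2.71 against T48, but its call in ESCs was lost when any of 3 single libraries was left out (WT 1, WT 3 or iEZR_CA 1). Id2 had 3.43 against T48.

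The transcription factor genes Nr0b1 and Evx1 had -3.55 against T48 and -3.15 against T24. Apobec2 had -2.53 against T24 and -4.21 against T48. The hyaluronan receptor gene Cd44 had 5.17, the tetraspanin gene Cd37 -4.38, the class I myosin gene Myo1f -2.56 and the laminin gene Lama1 2.37 against T48. The interferon response gene Oasl2 had 2.38 against T48. Nav3 had 11.15 against T48, but it is at the floor in WT ESCs, so this fitted value has no fixed size. The adjusted p-values of the 16 differences were at most 9.0e-05 by edgeR, in a set chosen for opposite changes.

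Outside the gene counts, reads with low alignment quality took 0.934% of iEZR_CA ESC libraries in the mean and 0.555% of WT ESC libraries, with no overlap (0.889% to 0.959% against 0.540% to 0.569%). Its part in any gene's difference was not tested.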

How the results depend on the processing

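No paired analysis was run, because the labels give no replicate numbers. The library numbers used here only name libraries and pair nothing. Of 174 genes named by rule, 135 could be tested with at least 10 counts required and 168 in a fit of the ESC libraries alone. None changed sign with a call where tested, and 18 lost their call under at least 1 alternative (among them Fgf15, Pou3f1, Wnt8a, Slc7a11, Wnt3, Hand1 and mt-Atp8). With ERCC scaling the genes differing between iEZR_CA and WT ESCs numbered 5506, the genes higher in iEZR_CA ESCs 3074 and the genes lower in iEZR_CA ESCs 2432, and the same contrast at T24 gave 7129 and the same contrast at T48 7229. The cause was not tested. Under it 9 named genes lost their call, among them Sox2, Aars, Cycs, Cox7a2, Cox8a and Hist1h1a, while the median of all genes moved by 0.05. It gave Ezr a log2 ratio of 1.13 against 1.08. Requiring at least 10 counts in all 6 ESC libraries tested fewer genes and left 1117 beyond a factor of 2, with 515 higher and 602 lower. Windows of 10 Mb gave 5 regions in place of 3, adding stretches on chromosomes 4 and X, and thresholds of 0.10 and 0.25 kept the chromosome 14 region and the stretch of chromosome 8 from 40000001 to 65000000. At 0.25 the other stretch of chromosome 8 was lost, and at 0.10 it ran to 120000000 and another appeared from 85000001 to 95000000. Leaving out 1 library gave -0.94 to -0.91 for the median of the chromosome 14 region, 9191 to 9769 genes differing and 2130 to 2305 beyond a factor of 2. Of the 34 list medians relative to all genes, 16 lay above 0, and 13 of the 442 recomputed values changed sign. With 10 counts required, medians went from -0.55 to 0.13 for 2-cell-like genes, 1.82 to 0.64 for Y-linked genes, 0.10 to 0.82 for primitive endoderm markers and -0.16 to -0.02 for the FGF list. Depth limits the genes at the floor, whose fitted fold changes have no fixed size.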

Other observations

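Of 35 genes called beyond 5 on the log2 scale, 25 were higher and 10 lower in iEZR_CA ESCs, and 30 kept their direction at T24 and T48. They were named after their values were seen. Of the rises, G530011O06Rik, Gm15726 and Gm15247 lie within the bounds of Mid1 near the end of chromosome X, on the other strand. Mid1 itself runs from 169685199 to 170005736 on the plus strand. The Y chromosome copies Mid1-ps1 and Gm21742 rose with them. Mid1-ps1 had 0, 0.765 and 0 normalized counts in WT ESCs and 280, 266 and 291 in iEZR_CA ESCs. Mid1 and the Y chromosome copies share sequence, and whether strand was used in counting is not given. Reads therefore cannot be placed with certainty among these genes, and their rises cannot be taken as separate.

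All 4 tested serum amyloid genes, which lie side by side on chromosome 7 and encode acute-phase proteins, fell. Saa1 had 23.6, 22.2 and 32.4 normalized counts in WT ESCs and none in iEZR_CA ESCs, and Saa2 and Saa4 had at most 1.11 in any iEZR_CA library. Fgf17, a ligand gene in the chromosome 14 region, fell from 110 to 2.42 in the means.

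Of the 25 rises, 13 were not protein coding. The processed pseudogene Ftl2-ps, a copy of a ferritin light chain gene, had 8.99, 11.5 and 14.5 normalized counts in WT ESCs and 4277, 4178 and 4134 in iEZR_CA ESCs. Gm5739, another processed pseudogene, had 11.2, 5.36 and 5.11 and then 2929, 2853 and 2818. Pseudogenes share sequence with their parent genes, and how much of these counts is read placement was not tested.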
